A study of Mus musculus with 16 samples.

Results

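Dexamethasone, a synthetic steroid that activates the glucocorticoid receptor, was set against its vehicle in macrophages labelled FOXO3-/-. The comparison used 8 of the 16 libraries of the series, chosen by their labels alone: 4 knockout libraries that received 100 nM dexamethasone for 24 h and 4 knockout libraries that received vehicle (DMSO). All were macrophages of FVB/N mice, differentiated from bone marrow for 5 to 7 days in medium holding 20% serum and 30% medium conditioned by L929, a fibroblast line that secretes the macrophage growth factor CSF1. The other 8 libraries were wild-type macrophages of the same strain and culture with the same pair of treatments, 4 each, and serve here to estimate the spread and to test whether a response differed between the genotypes. Whether the replicates are separate mice or cultures is not said in the labels; the p-values thus reflect only library-to-library spread, part or all of which may be technical. Which part of Foxo3 was deleted, and the age and sex of the mice, are not stated in the sources used here.

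The glucocorticoid receptor waits in the cytoplasm bound to chaperones of the heat shock family. Bound by hormone it enters the nucleus, where it raises some genes through palindromic response elements and restrains others that NF-kB, AP-1 or interferon factors drive. FOXO3 is a forkhead transcription factor that growth factor signalling through AKT keeps out of the nucleus, and that drives genes of quiescence, stress resistance and cell death. In macrophages glucocorticoids are known for lowering inflammatory output and for favouring the uptake of dying cells.

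Map3k6, a stress-activated kinase, was among the steepest rises of the comparison. Sgk1, a kinase, and Mt1, a metallothionein, are textbook targets of the receptor and rose less steeply. The promoters of Map3k6, Sgk1 and Mt1 are shown because they hold a palindrome of the receptor's response element. It was searched as GNACANNNTGTNC on both strands within the 250 bases before the annotated start. The capitals mark the match. The sequences come from RefSeq on GRCm38.p6, and each reads 5′ to 3′ on the strand of its gene, the plus strand for these genes. Map3k6 is given from chr4:133240568-133240817, Sgk1 from chr10:21993640-21993889 and Mt1 from chr8:94178839-94179088.
Map3k6: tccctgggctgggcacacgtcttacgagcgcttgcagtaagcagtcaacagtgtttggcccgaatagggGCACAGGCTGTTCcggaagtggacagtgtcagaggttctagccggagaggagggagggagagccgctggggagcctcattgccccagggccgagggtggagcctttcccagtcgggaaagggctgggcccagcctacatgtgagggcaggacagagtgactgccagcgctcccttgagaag
Sgk1: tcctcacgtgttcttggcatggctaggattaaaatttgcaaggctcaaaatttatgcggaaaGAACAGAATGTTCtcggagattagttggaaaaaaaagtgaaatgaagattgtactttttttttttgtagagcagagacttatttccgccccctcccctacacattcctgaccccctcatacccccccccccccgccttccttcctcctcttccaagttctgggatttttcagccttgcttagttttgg
Mt1: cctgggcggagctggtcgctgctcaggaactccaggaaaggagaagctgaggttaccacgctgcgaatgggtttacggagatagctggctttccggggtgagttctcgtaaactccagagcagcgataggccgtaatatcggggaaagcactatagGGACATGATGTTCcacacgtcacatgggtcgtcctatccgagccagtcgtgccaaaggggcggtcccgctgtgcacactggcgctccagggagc
The match began 181, 188 and 94 bases before the start. These letters were rare, in 25 of 8598 tested genes with a listed promoter (0.291%), in 2 of 182 genes that rose by at least 1 on the log2 scale, and in 2 of 22 receptor targets. A match is a description of letters, not a bound site.

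Values are FPKM, which scale fragments to a kilobase of exon and to library depth, so that levels of different genes can be set side by side. Gene-assigned reads worked back from the FPKM steps numbered 18111087 to 20584573 in the 8 knockout libraries, and a gene of 2 kb at 1 FPKM rested on 33.1 to 39.7 reads. All 10 macrophage markers were measured in every library, with a summed level of 13546 to 15936 FPKM with vehicle and 13183 to 15753 FPKM with dexamethasone. Lyz2 made up most of that sum, and the mean of the 10 markers on the log2(FPKM + 1) scale was 8.21 to 8.32 with vehicle and 7.99 to 8.08 with dexamethasone. Of the genes that mark other blood cells, Cd3d, Ly6g, Mpo, Fcer1a and Hba-a1 were listed at 0 in all 8 libraries, and Pax5 did not pass 0.05 FPKM. Other genes of those lists were measured throughout: Pf4, listed for megakaryocytes, at 36.6 to 117 FPKM, Ighm at 10.8 to 81.5, Cd4 at 3.53 to 17.3 and Igkc at 2.49 to 8.37 FPKM. S100a8, listed for neutrophils, was at 0.4475 to 3.73 FPKM, and Cpa3, listed for mast cells, at 0.0332 to 0.873 FPKM. The 12 stromal markers, genes of fibroblasts and their relatives, summed to 3.5 to 25.4 FPKM in vehicle libraries 1 to 3 and to 477 FPKM in vehicle library 4. In dexamethasone libraries 1 to 4 the sum was 7.7, 7.9, 73.3 and 103 FPKM. None of the 10 stromal markers tested passed between the treatments. Vehicle library 4 stood apart more widely: 700 genes lay at least 1 on the log2 scale from the median of the other vehicle libraries, 559 of them higher, against 91 to 110 genes for each other vehicle library and 164 to 196 for each dexamethasone library. List counts below are also given without it where the number of risers or of fallers moved by 2 or more genes.

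A difference in the targeted gene between the genotypes did not pass the test. Foxo3 (ENSMUSG00000048756, minus strand of chromosome 10 from 42181841 to 42276755, GRCm38) measured 24.7, 23.7, 23.2 and 23.6 FPKM with vehicle and 22.9, 24.6, 24.2 and 26.4 FPKM with dexamethasone, values listed here and below in the order of replicates 1 to 4. Its mean in the knockout vehicle libraries was 23.8 ± 0.635 FPKM against 24.7 ± 1.72 FPKM in wild type (SD, n = 4 each; exact permutation test, two-sided, p = 0.371). Under dexamethasone it was 24.5 ± 1.44 FPKM against 23.2 ± 1.07 FPKM in wild type (the same exact permutation test, p = 0.171; the smallest p that 4 against 4 libraries allow is 0.0286). A value over all exons of a gene need not fall when a part of it is deleted, so it does not check the genotype labels, which are taken as given. The difference with dexamethasone in the knockout did not pass either (0.04 ± 0.059 on the log2 scale, SE; limma adjusted p = 0.649).

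In the knockout macrophages 4562 of 11654 genes passed an adjusted p under 0.05 (39.1%), 1753 higher (15%) and 2809 lower (24.1%) with dexamethasone. List counts below are to be read against these shares of higher and lower genes. The test was limma on log2(FPKM + 1) with Benjamini-Hochberg adjustment over all genes tested, a scale that understates the change of low genes. Changes of at least 1 on that scale were called for 261 higher genes (2.24%) and 386 lower genes (3.31%). Every dexamethasone library lay above every vehicle library for 1929 genes (16.6%) and below for 2787 (23.9%). The excess of lower genes depended on the scaling: 38.4% of the calls were higher with the deposited scaling, 48.4% with median-ratio scaling and 51.1% with quantile normalization. Median-ratio scaling called 2225 genes higher (19.1%) and 2373 lower (20.4%). Without vehicle library 4 there were 4442 calls (38.1%), 1599 higher (13.7%) and 2843 lower (24.4%), of which 4079 were shared in direction and 0 were opposite. In bulk RNA fewer cells of a type and less RNA per cell cannot be told apart, and this holds for every fall given here.

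The wild-type contrast gave a yardstick, although the filter on low values and the estimate of spread used all 16 libraries. The 194 genes that rose (1.66%) and the 317 genes that fell (2.72%) by at least 1 in wild type were averaged in each knockout library. The mean of the risers was 2.21, 2.23, 2.23 and 2.39 on the log2(FPKM + 1) scale with vehicle and 3.85, 3.77, 3.76 and 3.84 with dexamethasone. The mean of the fallers was 4.58, 4.56, 4.45 and 4.21 with vehicle and 2.92, 3.02, 3.2 and 3.09 with dexamethasone. Each knockout library fell on the side of its treatment label, and vehicle library 4 was the vehicle library nearest to the dexamethasone side on both measures.

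**Figure D1:**
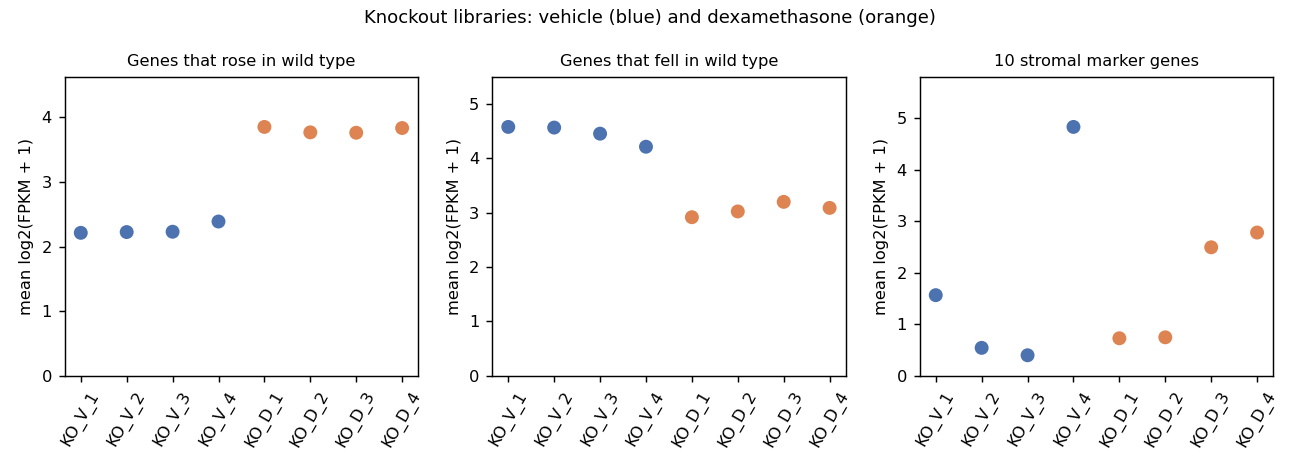
Mean log2(FPKM + 1) in each knockout library (points; blue, vehicle; orange, dexamethasone) of the genes that rose or fell by at least 1 in wild type, and of the 10 stromal marker genes tested. The treatments separate in the first 2 panels, from at most 2.39 to at least 3.76 for the risers, while in the stromal panel vehicle library 4 stands highest.

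The steepest rise was that of Ddit4, whose product REDD1 restrains the growth kinase mTORC1. It measured 3.04, 2.03, 1.54 and 9.53 FPKM with vehicle and 374, 329.8, 308 and 348 FPKM with dexamethasone. All 4 dexamethasone libraries stood above 300 FPKM and no vehicle library reached 10 FPKM, with vehicle library 4 the highest of its group (6.32 ± 0.49, log2, SE; limma adjusted p = 2.5e-07). Fkbp5, a co-chaperone that lowers the hormone affinity of the receptor, measured 0.981, 1.16, 0.997 and 0.99 FPKM with vehicle and 114, 103, 96.4 and 105 FPKM with dexamethasone. The vehicle libraries were within 0.2 FPKM of each other, and the difference of 5.70 ± 0.076 had the smallest adjusted p among the genes named here (limma, 4.39e-16). Jaml, a junctional adhesion molecule of leukocytes, measured 0.299, 0.66, 0.778 and 0.05 FPKM with vehicle and 69.5, 67.8, 72.4 and 35.8 FPKM with dexamethasone. It went from under 1 FPKM to over 30 FPKM, and dexamethasone library 4 was the lowest of its group (5.41 ± 0.27). Saa3, an acute-phase serum amyloid made by macrophages, measured 4.92, 11.9, 9.92 and 7.23 FPKM with vehicle and 373, 167, 165 and 204 FPKM with dexamethasone, with dexamethasone library 1 well above the rest.

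The steep rises also took in enzymes of drug metabolism and proteins of coagulation and adhesion. The sulfotransferase Sult1a1 rose from 7.05 ± 1.14 to 183 ± 27 FPKM (SD, n = 4) and the carbonyl reductase Cbr2 from 13 ± 3.37 to 188 ± 77 FPKM. F13a1, the catalytic subunit of coagulation factor XIII, measured 4.24, 5.7, 5.69 and 10.1 FPKM with vehicle and 128, 117, 85.3 and 79.8 FPKM with dexamethasone. Tns1, a focal adhesion protein, measured 3.8, 5.42, 4.13 and 3.33 FPKM with vehicle and 72.2, 70.6, 61.9 and 64.4 FPKM with dexamethasone. The groups lay far apart in both genes. Tsc22d3 encodes the glucocorticoid-induced leucine zipper, which binds NF-kB and AP-1, and measured 30.0, 30.1, 28.7 and 16.3 FPKM with vehicle and 341, 315, 293 and 314 FPKM with dexamethasone, with vehicle library 4 the lowest. Map3k6, whose promoter is shown above, went from under 1 FPKM in every vehicle library to 17.5, 14.1, 13.8 and 15.9 FPKM (3.34 ± 0.11; limma adjusted p = 6.06e-11). Adamtsl4, an extracellular matrix protein, and Jdp2, a repressor of AP-1, rose from 1.85 to 29.6 FPKM and from 3.79 to 36.7 FPKM. Hp, the haemoglobin-binding haptoglobin, measured 1.92, 1.77, 2.33 and 28.9 FPKM with vehicle and 66.7, 50.1, 55.9 and 63.6 FPKM with dexamethasone. Its rise rested on a vehicle group in which library 4 held over 10 times the level of the others: the log2 difference was 3.49 ± 0.78 with that library and 4.32 ± 0.63 without it.

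The steepest falls included surface receptors, secreted proteases and transcription factors of activated macrophages. Cd72, a lectin-like inhibitory receptor, measured 48.8, 48.9, 49.8 and 50.1 FPKM with vehicle and 3.22, 2.77, 4.5 and 3.97 FPKM with dexamethasone. The vehicle libraries lay within 2 FPKM of each other and every dexamethasone library was below 5 FPKM (-3.46 ± 0.18; limma adjusted p = 7.71e-09). Pcp4l1, a small calmodulin-regulating protein, measured 59.6, 58.6, 56 and 34.5 FPKM with vehicle and 2.57, 3.24, 5.23 and 3.77 FPKM with dexamethasone. Il21r, the receptor of the lymphocyte cytokine interleukin-21, measured 12.2, 11.1, 10.4 and 28 FPKM with vehicle and 0.636, 0.549, 0.995 and 1.09 FPKM with dexamethasone, highest in vehicle library 4. Plau, the urokinase that activates plasminogen, measured 77.2, 79.6, 73.7 and 45.6 FPKM with vehicle and 5.69, 8.15, 10.9 and 6.89 FPKM with dexamethasone. Every dexamethasone library was below every vehicle library in these genes, vehicle library 4 included.

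Egr2, an early growth response factor, fell from 16.9 ± 4.87 to 1.43 ± 0.323 FPKM, and Slamf9, a receptor of the SLAM family, from 14.8 ± 4.0 to 1.3 ± 0.457 FPKM. Mmp12, macrophage elastase, measured 94.8, 107, 109 and 41.6 FPKM with vehicle and 7.5, 15.6, 19.6 and 10.1 FPKM with dexamethasone. Cd180, a toll-like receptor without a signalling domain that partners Ly86, measured 74.2, 61, 63.5 and 46.3 FPKM with vehicle and 6.91, 9.61, 12.1 and 9.87 FPKM with dexamethasone. The cytokine gene Tnf was low in vehicle already and nearly silent with dexamethasone, at 7.83, 9.32, 8.12 and 5.94 FPKM with vehicle and 0.0697, 0.732, 0.897 and 0.584 FPKM with dexamethasone (-2.50 ± 0.16; limma adjusted p = 5.04e-08). Gpr162, an orphan receptor, fell from 40.2 to 5.4 FPKM.

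**Figure D2:**
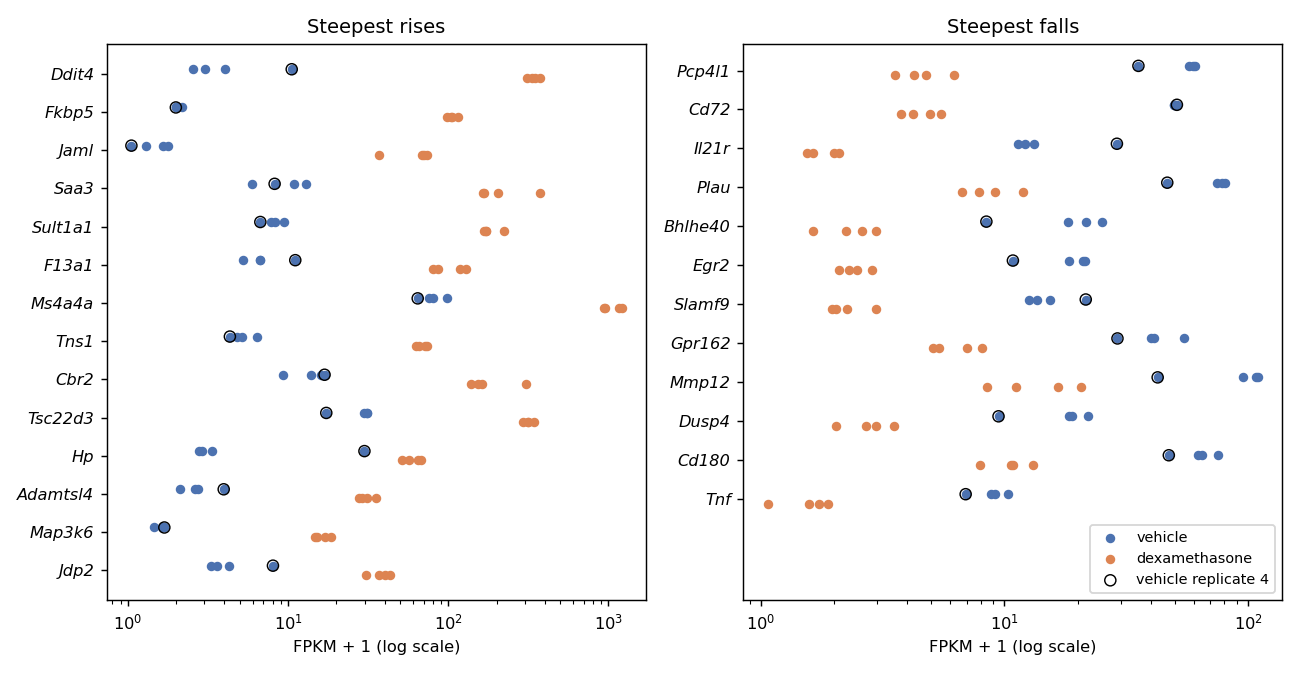
FPKM + 1 (log axis) in each knockout library for the genes reported here among the 14 with the steepest rise and the 14 with the steepest fall whose groups do not overlap. Blue points are vehicle and orange points dexamethasone libraries, and a ring marks vehicle replicate 4, which stands apart from its group in, among others, Hp, Ddit4, Jdp2 and Il21r.

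Of 27 tested textbook targets of the receptor, 13 rose and 6 fell, against 15% and 24.1% of all genes, with a median log2 difference of 0.30 against -0.055 over all genes tested. Without vehicle library 4 the median of the list was 0.77. The list was drawn up with results of these data known, so its count is a description. Klf9, a repressor that is a direct target in many tissues, measured 3.45, 3.14, 5.4 and 4.06 FPKM with vehicle and 28.9, 22.1, 23.7 and 25.7 FPKM with dexamethasone. Zbtb16, a zinc finger factor that is hardly expressed without hormone, measured 0.198, 0.183, 0.273 and 0.353 FPKM with vehicle and 8.57, 7.13, 5.49 and 8.3 FPKM with dexamethasone. Glul, glutamine synthetase, was the most abundant riser of the list, at 108, 129, 116 and 115 FPKM with vehicle and 542, 485, 466 and 494 FPKM with dexamethasone. Groups did not overlap in any of these genes.

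The metallothioneins Mt1 and Mt2, small zinc-binding proteins, rose from 114 ± 8.87 to 196 ± 13.4 FPKM and from 2.2 ± 1.02 to 7.21 ± 1.75 FPKM; they are near-copies in sequence, so reads may have been split between them. Sgk1 rose modestly, at 22.1, 15.9, 16.3 and 17.3 FPKM with vehicle and 31.3, 29.3, 33.2 and 32.3 FPKM with dexamethasone (0.79 ± 0.089; limma adjusted p = 8.26e-06). Nfkbia, the inhibitor that holds NF-kB in the cytoplasm, rose from 39.3 ± 2.24 to 66.8 ± 3.12 FPKM. The receptor's own list held falls too. Tgm2, a transglutaminase, measured 15.2, 10.9, 5.96 and 20.6 FPKM with vehicle and 0.706, 1.18, 2.29 and 2.66 FPKM with dexamethasone, and the repressor Bcl6 fell from 11.2 ± 0.93 to 4.38 ± 0.382 FPKM. Sesn1, a sestrin that restrains mTORC1 and a FOXO target, fell from 91.3 ± 10.9 to 47.6 ± 2.48 FPKM. The clock gene Per2 was called lower with all libraries and not without vehicle library 4 (limma adjusted p = 0.0242 and 0.0645).

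Among 17 tested genes of the receptor, its chaperones and coregulators, 3 rose and 6 fell (17.6% and 35.3%, beside 15% and 24.1% of all genes). The direction of the list's median changed with the scaling and is not given. Nr3c1, the receptor gene itself, measured 13, 11, 15.4 and 12.6 FPKM with vehicle and 11, 10.5, 9.48 and 10.4 FPKM with dexamethasone; the groups did not overlap, but the difference of -0.30 ± 0.12 did not pass (limma adjusted p = 0.069). The HSP90 gene Hsp90ab1 fell from 465 ± 34.8 to 331 ± 13.3 FPKM, as did its partners Stip1 (from 51.2 to 36.1 FPKM) and Fkbp4 (from 23.1 to 17.2 FPKM), a co-chaperone that opposes Fkbp5. Of the coactivators, Ncoa1 rose and Ncoa3 fell (0.93 ± 0.12 and -0.52 ± 0.068, log2, SE).

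Phosphatases and other brakes of the MAP kinases moved apart. Dusp1, which inactivates p38 and JNK and is a known mediator of glucocorticoid action, measured 5.92, 8.26, 6.88 and 10.1 FPKM with vehicle and 75.6, 61.7, 57.4 and 59.1 FPKM with dexamethasone. It was the only riser of 14 tested members, while 8 fell. Dusp4, an ERK phosphatase, measured 18, 21, 17.5 and 8.46 FPKM with vehicle and 1.04, 1.69, 1.97 and 2.52 FPKM with dexamethasone, with vehicle library 4 the lowest of its group and still above every dexamethasone library. The RAS pathway inhibitors Spred1 and Spred2 fell by 0.67 and 1.27 on the log2 scale. Dusp6 stood at 13.2 ± 3.61 FPKM with vehicle and 8.75 ± 1.93 FPKM with dexamethasone and did not pass (limma adjusted p = 0.141).

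Early response genes that these kinases feed showed a similar split. Atf3, a stress-induced repressor, was the most abundant of them with vehicle and fell from 213 ± 64 to 46.2 ± 8.13 FPKM. Fos and Jun, the AP-1 pair, fell by 1.23 and 0.78. Zfp36l1, a decay factor for AU-rich mRNA, rose from 46.1 ± 6.48 to 90.9 ± 6.79 FPKM, and Fosl2 rose from 3.95 ± 1.41 to 6.15 ± 0.951 FPKM. In all 3 of 18 tested members rose and 7 fell (16.7% and 38.9%, beside 15% and 24.1% of all genes). Egr1 and Myc stood at 2.47 ± 3.12 FPKM with vehicle and 0.601 ± 0.404 FPKM with dexamethasone and at 5.44 ± 1.7 FPKM with vehicle and 2.79 ± 1.15 FPKM with dexamethasone, and neither passed (limma adjusted p = 0.299 and 0.0945).

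The core clock shifted in both directions. Per1, a repressor of the clock with known receptor binding sites, measured 5.19, 5.94, 4.73 and 5.21 FPKM with vehicle and 32.4, 32, 27.9 and 35 FPKM with dexamethasone. Arntl and Clock, the activator pair, rose from 1.28 ± 0.451 to 3.19 ± 0.501 FPKM and from 2.4 ± 0.582 to 3.68 ± 0.204 FPKM. Nfil3 rose from 5.38 ± 3.98 to 10.9 ± 1.23 FPKM, whereas its antagonists of the PAR family fell, Dbp from 14.6 ± 1.53 to 3.42 ± 0.649 FPKM and Tef from 11.7 ± 0.239 to 5.98 ± 0.712 FPKM. Bhlhe40 and Bhlhe41, repressors that compete with the activator pair, fell by 2.88 ± 0.29 and 1.69 ± 0.15 (log2, SE). Per3 went from 1.52 to 0.277 FPKM. Of 18 tested clock genes 4 rose and 7 fell (22.2% and 38.9%, beside 15% and 24.1% of all genes). The libraries are samples at a single time, so phase was not measured.

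Krüppel-like factors moved only upward among those called, 4 of 13 (30.8%, beside 15% of all genes). Klf4, a factor of monocyte differentiation, measured 2.72, 1.82, 3.12 and 5.92 FPKM with vehicle and 30.5, 21.3, 23.8 and 22.3 FPKM with dexamethasone. Klf13 and Klf11 rose from 16.8 ± 2.07 to 40.6 ± 2.58 FPKM and from 2.26 ± 0.394 to 4.33 ± 0.411 FPKM. Klf2, another FOXO-linked member, stood at 15 ± 1.98 FPKM with vehicle and 16.5 ± 2.15 FPKM with dexamethasone and did not pass (limma adjusted p = 0.398).

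Interferon-induced genes fell widely. Of 38 tested members 0 rose and 30 fell (29 without vehicle library 4), against 24.1% of all genes, and the median log2 difference was -1.06. The labels name no added interferon. The promoters of Isg15, a ubiquitin-like modifier, and of Ifit1, which binds viral RNA, are shown because they hold GAAANNGAAA, the core of the interferon-stimulated response element, searched on both strands; the capitals mark the matches, which adjoin or overlap each other in Isg15. Isg15 is given from chr4:156200819-156201068 on the minus strand and Ifit1 from chr19:34640639-34640888 on the plus strand (RefSeq, GRCm38.p6).
Isg15: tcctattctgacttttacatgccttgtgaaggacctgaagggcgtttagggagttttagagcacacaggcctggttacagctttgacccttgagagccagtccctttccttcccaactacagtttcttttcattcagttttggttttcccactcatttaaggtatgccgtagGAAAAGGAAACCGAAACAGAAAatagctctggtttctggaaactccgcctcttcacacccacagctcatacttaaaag
Ifit1: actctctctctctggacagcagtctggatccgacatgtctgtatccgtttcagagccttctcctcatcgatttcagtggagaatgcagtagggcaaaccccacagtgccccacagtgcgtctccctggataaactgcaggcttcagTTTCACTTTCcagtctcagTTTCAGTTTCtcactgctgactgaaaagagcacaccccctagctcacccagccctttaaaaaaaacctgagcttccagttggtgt
The element stood in 16 of the 28 list members with a listed promoter (57.1%), against 288 of 8598 tested genes (3.35%). Of the 22 list members that fell and have a listed promoter, 13 hold the element (59.1%), a share close to that of the whole list. Among all tested genes the element stood in 9.33% of those that fell and 4.95% of those that rose by at least 1.

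Isg15 measured 18.7, 29.8, 22.2 and 19.2 FPKM with vehicle and 4.76, 5.52, 5.07 and 5.13 FPKM with dexamethasone (-1.92 ± 0.16; limma adjusted p = 4.09e-07). Ifit1 measured 6.03, 6.61, 7.72 and 4.62 FPKM with vehicle and 0.451, 0.334, 0.909 and 0.588 FPKM with dexamethasone. Ifit2, a relative in the same gene cluster, measured 11.3, 11, 13.1 and 9.79 FPKM with vehicle and 0.916, 1.16, 1.85 and 0.962 FPKM with dexamethasone. Ifit3, another, measured 13.9, 19.5, 19 and 12.5 FPKM with vehicle and 2.49, 2.12, 3.13 and 1.73 FPKM with dexamethasone. Every dexamethasone library was below every vehicle library in these genes. The Ifit genes are similar in sequence, so reads may be shared among them. Rsad2, the antiviral enzyme viperin, fell from 3.87 ± 0.596 to 0.855 ± 0.22 FPKM. Iigp1, an immunity-related GTPase, measured 3.61, 2.44, 2.38 and 17.2 FPKM with vehicle and 0.421, 0.451, 1.43 and 0.355 FPKM with dexamethasone, and its call was lost without vehicle library 4 (limma adjusted p = 0.0218 with it and 0.0625 without it).

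Of 25 tested sensors and factors of the interferon pathway 4 rose and 9 fell (2 and 8 without vehicle library 4). That is 16% and 36%, beside 15% and 24.1% of all genes. Stat2, which carries the signal of the interferon receptor, fell from 19.4 ± 1.35 to 11.2 ± 0.552 FPKM. Irf7, which amplifies the response, measured 22.1, 44.6, 42.5 and 28.9 FPKM with vehicle and 18.4, 13.7, 11.8 and 11.2 FPKM with dexamethasone. The receptor chains Ifnar1 and Ifngr2 fell by 0.60 and 0.67, while Ifngr1, the ligand-binding chain for interferon gamma, rose from 77.4 ± 5.6 to 143 ± 5.75 FPKM. Tlr7, the sensor of single-stranded RNA, measured 35.9, 34.1, 43.7 and 37 FPKM with vehicle and 113, 116, 108 and 105 FPKM with dexamethasone, and its relative Tlr8 rose from 52.6 ± 9.25 to 98.3 ± 6.08 FPKM. The kinases Jak1 and Jak2 rose slightly (0.18 and 0.34), calls that were lost without vehicle library 4 (limma adjusted p = 0.0534 and 0.0939).

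**Figure D3:**
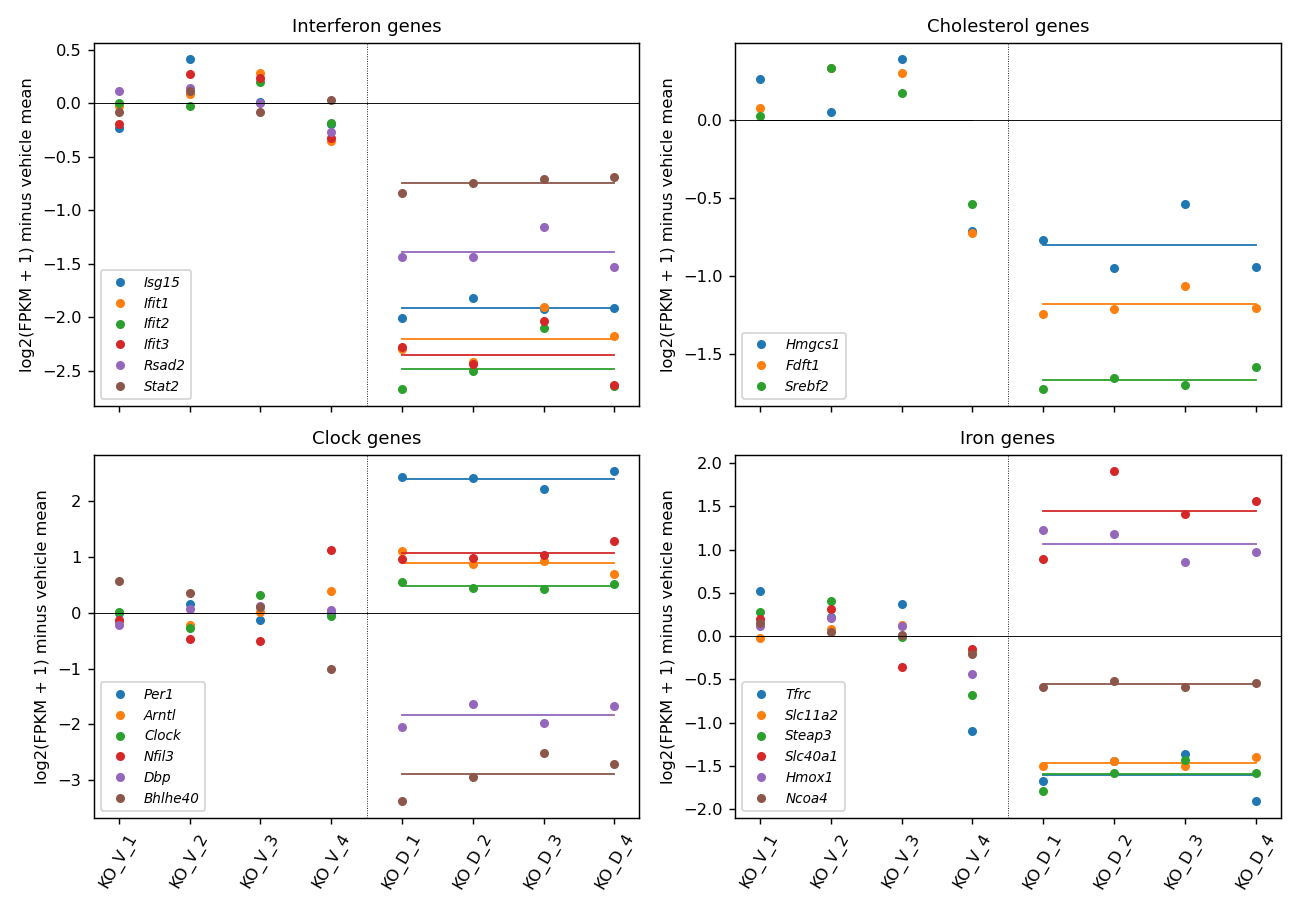
Difference of log2(FPKM + 1) from the vehicle mean in each knockout library for members of 4 gene lists; coloured lines mark the dexamethasone means. The interferon and cholesterol genes plotted lie below 0 in every dexamethasone library, while the clock and iron genes plotted lie on both sides.

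Antigen presentation fell on both arms. Of 11 tested class II genes 8 fell (7 without vehicle library 4) and 0 rose, with a median of -1.28. H2-Ab1, a class II chain, measured 31.3, 26.4, 11.1 and 41.5 FPKM with vehicle and 1.53, 3.28, 6.42 and 4.92 FPKM with dexamethasone. Cd74, the invariant chain that guards the groove, measured 653, 536, 296 and 765 FPKM with vehicle and 60.3, 108, 188 and 156 FPKM with dexamethasone. Ciita, the master activator of these genes, fell from 2.25 ± 0.613 to 0.264 ± 0.115 FPKM. Of 22 tested class I genes 17 fell (14 without vehicle library 4), by less, with a median of -0.52. The light chain B2m fell from 2986 ± 224 to 2283 ± 178 FPKM, the proteasome activator Psme2 from 105 ± 13.3 to 38.3 ± 2.47 FPKM and the loading chaperone Calr from 429 ± 60.1 to 199 ± 18.8 FPKM. The peptide transporter Tap1 stood at 24.8 ± 6.92 FPKM with vehicle and 22.7 ± 1.68 FPKM with dexamethasone and did not pass (limma adjusted p = 0.772). The class I genes themselves are near-copies of each other, and their values are uncertain for that reason.

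Costimulatory and related ligands fell in 7 of 17 cases, with 1 higher. Cd83, an activation marker that steadies class II at the surface, measured 54.6, 40.2, 35 and 38.1 FPKM with vehicle and 3.91, 7.26, 8.66 and 8.32 FPKM with dexamethasone. Cd274, the checkpoint ligand PD-L1, fell from 18.5 ± 5.12 to 6.78 ± 1.27 FPKM, Cd40 from 1.6 ± 0.37 to 0.482 ± 0.215 FPKM and Slamf8 from 2.96 ± 0.945 to 0.125 ± 0.0988 FPKM. Icosl, the ligand of ICOS, rose from 2.77 ± 0.588 to 3.79 ± 0.678 FPKM. The ligand of CD28 encoded by Cd86 stood at 5.91 ± 2.48 FPKM with vehicle and 4.57 ± 0.448 FPKM with dexamethasone and did not pass (limma adjusted p = 0.364).

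Among toll-like and other pattern receptors, the endosomal RNA sensors Tlr7 and Tlr8 given above rose, and the surface receptors Tlr1, Tlr2 and Cd14 fell. Tlr1, which pairs with Tlr2, measured 32.4, 25.7, 31.8 and 26.3 FPKM with vehicle and 5.7, 5.81, 7.74 and 6.56 FPKM with dexamethasone. Tlr2 fell from 37.3 ± 5.69 to 24.5 ± 1.45 FPKM and Cd14, the carrier of lipopolysaccharide, from 223 ± 40.6 to 131 ± 11.1 FPKM. Ly96, the lipopolysaccharide-binding partner of Tlr4, rose from 8.51 ± 1.38 to 16.8 ± 2.01 FPKM, while Tlr4 itself stood at 12.3 ± 2.5 FPKM with vehicle and 12.6 ± 0.665 FPKM with dexamethasone (limma adjusted p = 0.849). The adaptor kinase Irak2 fell from 12.9 ± 0.452 to 4.79 ± 0.478 FPKM and the inflammasome adaptor Pycard from 17.8 ± 0.439 to 10.9 ± 0.987 FPKM. In all 5 of 29 tested members rose and 10 fell (17.2% and 34.5%, beside 15% and 24.1% of all genes).

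NF-kB genes fell in 9 of 22 cases, and Nfkbia was the only riser with the deposited scaling (2 rose with median-ratio scaling). Nfkbiz, an atypical inhibitor needed for secondary response genes, measured 12.7, 11.8, 16.5 and 17 FPKM with vehicle and 5.37, 4.28, 4.41 and 4.82 FPKM with dexamethasone. Nfkbie and Tnip3, other feedback inhibitors, fell from 15 ± 0.818 to 5.51 ± 0.501 FPKM and from 3.43 ± 0.529 to 0.507 ± 0.0991 FPKM. Nfkb1 fell by 0.39 ± 0.055 (log2, SE), and Rela stood at 57.3 ± 5.94 FPKM with vehicle and 64.1 ± 1.76 FPKM with dexamethasone without a call (limma adjusted p = 0.129).

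Cytokine transcripts were sparse in these cultures: of the 30 listed, 18 passed the filter on low values, and Il1b, Il6 and Il12b did not. Besides Tnf, Il10 fell from 4.93 ± 0.937 to 2.32 ± 0.223 FPKM, and Pdgfb, a growth factor for stromal cells, from 36.5 ± 8.88 to 15.4 ± 0.746 FPKM. Tgfb1 and Gas6, the bridge from dying cells to Mertk, fell from 153 ± 17.7 to 109 ± 2.14 FPKM and from 405 ± 60.8 to 306 ± 28.8 FPKM. Il18 was the only riser with the deposited scaling (2 rose with median-ratio scaling), from 4.44 ± 0.434 to 8.61 ± 1.47 FPKM. Vegfa measured 2.47, 1.31, 1.28 and 11.6 FPKM with vehicle and 0.213, 0.39, 1.12 and 1.19 FPKM with dexamethasone; the groups did not overlap, and the difference did not pass (limma adjusted p = 0.118).

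Among cytokine receptors the ligand-binding chains Lifr and Il6ra rose. Lifr, the receptor of leukaemia inhibitory factor, measured 1.42, 1.36, 1.93 and 3.84 FPKM with vehicle and 16.5, 15.4, 13.7 and 15.1 FPKM with dexamethasone. Il6ra measured 14.8, 14.7, 14.9 and 17.1 FPKM with vehicle and 41.6, 38.4, 35.3 and 43.8 FPKM with dexamethasone. Their groups lay far apart, while the shared signalling chain Il6st fell by 0.33 (log2; limma adjusted p = 0.045). Il4ra, the receptor chain of alternative activation, rose from 41.4 ± 10.9 to 58.1 ± 8.04 FPKM, and Csf1r, the receptor of the growth factor in the medium, from 608 ± 104 to 756 ± 55.8 FPKM. The common gamma chain Il2rg fell from 53.4 ± 4.1 to 27.4 ± 2.72 FPKM and Csf3r from 24.2 ± 1.0 to 12.7 ± 1.28 FPKM. Counts were 5 higher and 10 lower of 25 (5 and 12 without vehicle library 4), or 20% and 40%, beside 15% and 24.1% of all genes.

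Of 16 tested chemokines 1 rose and 5 fell (6.25% and 31.2%, beside 15% and 24.1% of all genes). Ccl3, a chemokine of inflamed tissue, measured 59.6, 64.6, 56.8 and 31.6 FPKM with vehicle and 14.5, 16.5, 18 and 14.5 FPKM with dexamethasone. Ccl4, another, measured 32.1, 40.8, 27.4 and 21.5 FPKM with vehicle and 4.76, 6.72, 8.43 and 6.87 FPKM with dexamethasone. Both lay below their vehicle range in every dexamethasone library. Cxcl14 fell from 19 ± 12.1 to 2.54 ± 1.43 FPKM and Cxcl16, a scavenger-type chemokine, from 40.0 ± 4.38 to 17.7 ± 1.28 FPKM. Ccl6, a chemokine of resident macrophages in mice, was the riser, at 212, 202, 196 and 198 FPKM with vehicle and 443, 393, 432 and 444 FPKM with dexamethasone. Ccl2 stood at 9.55 ± 7.42 FPKM with vehicle and 6.94 ± 5.53 FPKM with dexamethasone and did not pass (limma adjusted p = 0.583).

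Chemotactic receptors fell in 12 of 20 cases, with 3 higher. Ptafr, the receptor of platelet-activating factor, fell from 113 ± 17.8 to 57.8 ± 5.38 FPKM. The complement receptors went apart: C3ar1 fell from 333 ± 29.1 to 196 ± 6.99 FPKM, and C5ar1 rose from 179 ± 15.4 to 285 ± 37.2 FPKM. Cmklr1, which binds chemerin, rose from 14.2 ± 1.96 to 31.3 ± 2.5 FPKM. Ccr2, the receptor of inflammatory monocytes, fell from 1.18 to 0.149 FPKM, by 0.82 on the log2 scale with all libraries and by 0.54 without vehicle library 4. Cxcr4 stood at 103, 116, 97.5 and 54.2 FPKM with vehicle and 138, 153, 121 and 125 FPKM with dexamethasone; the groups did not overlap and the difference did not pass (limma adjusted p = 0.0808).

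The high-affinity activating Fc receptor fell and the recycling receptor rose. Fcgr1, the high-affinity receptor of IgG, measured 56.2, 59, 49.4 and 86.1 FPKM with vehicle and 11, 10.8, 15.4 and 12.7 FPKM with dexamethasone. Fcgrt, the neonatal receptor that returns IgG to the surface, measured 61.1, 77.2, 63.2 and 124 FPKM with vehicle and 284, 265, 237 and 272 FPKM with dexamethasone. The signalling chain Fcer1g fell from 857 ± 40.0 to 440.3 ± 21.1 FPKM, and the Fc receptor-like gene Fcrls from 240.4 ± 77.8 to 65.6 ± 9.39 FPKM. The inhibitory Fcgr2b and the low-affinity Fcgr3 stood at 18.6 ± 3.65 FPKM with vehicle and 22.6 ± 3.03 FPKM with dexamethasone and at 219 ± 34.5 FPKM with vehicle and 235 ± 11 FPKM with dexamethasone, and neither passed (limma adjusted p = 0.372 and 0.567). Counts were 2 higher and 8 lower of 14 (14.3% and 57.1%, beside 15% and 24.1% of all genes).

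Complement genes gave 8 rises and 5 falls of 17 (7 and 5 without vehicle library 4), or 47.1% and 29.4%, beside 15% and 24.1% of all genes. All 3 chains of C1q, which tags dying cells, rose: C1qa from 739.9 ± 138 to 1411 ± 152 FPKM, C1qb from 907 ± 155 to 1916 ± 139 FPKM and C1qc from 642 ± 102 to 955 ± 25.6 FPKM. The inhibitor Cd55 rose from 7.15 ± 1.68 to 26.3 ± 4.3 FPKM. The integrin chains of the complement receptors fell, Itgam from 42.8 ± 5.93 to 25.7 ± 3.08 FPKM and Itgb2 from 426 ± 99.8 to 293 ± 12.5 FPKM. Itgax measured 51.6, 46.5, 48.5 and 12 FPKM with vehicle and 12, 11.8, 12.6 and 11.3 FPKM with dexamethasone; vehicle library 4 lay among the dexamethasone libraries, and the log2 difference moved from -1.46 ± 0.41 to -1.95 ± 0.30 without it.

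Of 32 tested receptors, bridges and engulfment genes for dying cells, 6 rose and 20 fell. Mertk, the receptor kinase known for its response to glucocorticoids, measured 28.6, 29.2, 26.2 and 22.3 FPKM with vehicle and 114, 117, 101 and 112 FPKM with dexamethasone (2.02 ± 0.13; limma adjusted p = 3.84e-08). Stab1, a receptor of phosphatidylserine, measured 105, 123, 113 and 211 FPKM with vehicle and 265, 303, 218 and 262 FPKM with dexamethasone. Cd300lf and Ucp2 rose from 7.33 ± 0.429 to 14 ± 0.68 FPKM and from 234 ± 32.7 to 403 ± 26.3 FPKM. Axl, a related kinase, stood at 12.8 ± 9.6 FPKM with vehicle and 6.59 ± 4.66 FPKM with dexamethasone and did not pass (limma adjusted p = 0.298). Cd36 fell from 266 ± 61.9 to 137 ± 30.5 FPKM, Trem2 from 296 ± 49.2 to 128 ± 18.8 FPKM and Cd300lb from 94.3 ± 16 to 32.1 ± 3.7 FPKM, all receptors of lipids or dying cells. The engulfment GTPase Rac2 fell from 238 ± 2.13 to 101 ± 4.62 FPKM.

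Scavenger receptors and lectins split as well, 7 higher and 9 lower of 27 (8 and 12 without vehicle library 4). The shares were 25.9% and 33.3%, beside 15% and 24.1% of all genes. Cd163, which takes up haemoglobin bound to haptoglobin, measured 1.84, 1.39, 1.43 and 3.8 FPKM with vehicle and 13.1, 12, 12.5 and 13.2 FPKM with dexamethasone. Lyve1, a hyaluronan receptor of tissue macrophages, was at 0 or near it in vehicle, at 0.0199, 0, 0 and 0.0177 FPKM with vehicle and 2.11, 1.48, 2.28 and 2.02 FPKM with dexamethasone. Mrc1, the mannose receptor, rose from 177 ± 15.7 to 253 ± 24.3 FPKM, and Clec4e from 2.35 ± 0.71 to 6.37 ± 1.24 FPKM. The lectins Clec12a and Cd209f fell from 73.8 ± 6.6 to 30.6 ± 3.18 FPKM and from 6.02 ± 4.6 to 0.898 ± 0.35 FPKM. Msr1 stood at 50.8 ± 19.5 FPKM with vehicle and 30.0 ± 1.88 FPKM with dexamethasone without a call (limma adjusted p = 0.171), and was called lower without vehicle library 4 (limma adjusted p = 0.0258).

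The MS4A genes, membrane proteins of a gene cluster on chromosome 19, rose in 5 of 8 cases. Ms4a4a, which associates with Fc receptors and dectin-1 in mice, measured 74.4, 79.2, 96.7 and 63.4 FPKM with vehicle and 1205, 1166, 949.5 and 941 FPKM with dexamethasone, about 13.6-fold higher in the mean. Ms4a6b measured 18.5, 17.9, 22.6 and 20.6 FPKM with vehicle and 121, 109.6, 102 and 105 FPKM with dexamethasone. Ms4a6c and Ms4a6d rose from 92 ± 7.21 to 302 ± 17.6 FPKM and from 125 ± 28.8 to 398 ± 27.4 FPKM; members of the Ms4a6 group are similar in sequence and may share reads. Ms4a7, abundant in every library, stood at 273 ± 39.5 FPKM with vehicle and 216 ± 18.6 FPKM with dexamethasone (limma adjusted p = 0.324).

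Inhibitory receptors moved both ways, 2 higher and 8 lower of 17 (11.8% and 47.1%, beside 15% and 24.1% of all genes). Sirpa, the receptor of the signal CD47, measured 875, 939.7, 805 and 673 FPKM with vehicle and 320.3, 355, 357 and 349 FPKM with dexamethasone. Lair1, which binds collagen, fell from 19 ± 2.76 to 6.27 ± 1.65 FPKM, Cd22 from 8.06 ± 1.41 to 1.67 ± 0.194 FPKM and Siglece from 13.1 ± 3.34 to 7.45 ± 2.39 FPKM. The paired receptor genes Pirb and Lilra6 rose from 62.7 ± 4.49 to 114 ± 6.37 FPKM and from 14.8 ± 2.45 to 24.9 ± 4.63 FPKM; these are near-copies, and reads may have been shared.

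Integrins and adhesion molecules fell in 12 of 23 cases (14 without vehicle library 4), with 4 higher. Itgal and Itga6 fell from 14.4 ± 4.08 to 3.16 ± 0.965 FPKM and from 12.9 ± 1.68 to 2.24 ± 0.618 FPKM. The tetraspanin Cd9 measured 198, 167, 168 and 82.1 FPKM with vehicle and 18.3, 24.1, 33 and 28.9 FPKM with dexamethasone. Icam1 fell from 40.7 ± 5.92 to 18.3 ± 2.56 FPKM. Besides Jaml, Itgb7 and Vcam1 rose from 1.77 ± 0.66 to 5.44 ± 2.56 FPKM and from 1.98 ± 1.93 to 7.15 ± 2.85 FPKM.

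Proteases and their inhibitors gave 8 rises and 10 falls of 33 (24.2% and 30.3%, beside 15% and 24.1% of all genes). Adam19 rose from 15.7 ± 3.42 to 46.5 ± 5.75 FPKM and Mmp19 from 15.3 ± 2.13 to 32.2 ± 1.72 FPKM. Beside Plau and Mmp12, the coagulation factor F7 fell from 11.5 ± 3.47 to 4.75 ± 1.01 FPKM and Serpinb9, the inhibitor of granzyme B, from 4.91 ± 0.239 to 2.65 ± 0.297 FPKM. Mmp9 fell from 9.51 ± 2.32 to 3.85 ± 0.239 FPKM, a call that was not kept without vehicle library 4 (limma adjusted p = 0.0595).

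Of 25 tested macrophage lineage genes 6 rose and 9 fell (24% and 36%, beside 15% and 24.1% of all genes). Spi1, the factor PU.1, fell from 201 ± 23.9 to 143 ± 3.26 FPKM, Adgre1, which encodes F4/80, from 1282 ± 148 to 705 ± 60.7 FPKM, and Aif1 from 69.9 ± 6.99 to 22.8 ± 1.52 FPKM. Mitf and Tfec, members of the same family of factors, went apart, from 13.5 to 7.48 FPKM and from 2.87 to 4.46 FPKM. Osteoclast and fusion genes fell in 10 of 15 cases, with 3 higher: Dcstamp, needed for fusion, fell from 4.25 ± 1.6 to 0.553 ± 0.23 FPKM, and Tnfrsf11a, the receptor RANK, from 22.8 ± 2.8 to 14.1 ± 0.529 FPKM, while Myo10 and Cd81 rose from 16.8 ± 3.89 to 48.4 ± 3.6 FPKM and from 65.9 ± 9.01 to 127 ± 14.1 FPKM.

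Cholesterol synthesis fell as a block. Of 25 tested genes of the pathway and its regulators 20 fell and 0 rose (1 with median-ratio scaling; 22 and 0 without vehicle library 4), with a median of -0.80. Sterol genes are driven by SREBP2, the product of Srebf2, together with NF-Y, which binds CCAAT. The promoter of Hmgcs1, the first dedicated enzyme of the pathway, is shown because it was the only one of the list with the sterol element searched, TCACNCCAC on both strands. It spans chr13:119690101-119690350 on the plus strand (RefSeq, GRCm38.p6), with the element in capitals.
Hmgcs1: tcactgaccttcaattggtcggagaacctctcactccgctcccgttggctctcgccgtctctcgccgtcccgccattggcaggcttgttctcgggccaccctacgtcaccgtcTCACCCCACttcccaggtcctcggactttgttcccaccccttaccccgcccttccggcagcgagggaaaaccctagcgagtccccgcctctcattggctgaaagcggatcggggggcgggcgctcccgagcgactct
The element stood in 110 of 8598 tested genes (1.28%), in 1.87% of genes that fell and in 1.1% of genes that rose by at least 1. CCAAT stood in 17 of 19 list members with a listed promoter (89.5%) and in 3444 of all tested genes (40.1%). Of the 14 list members that fell and have a listed promoter, 13 hold CCAAT (92.9%). Among all tested genes CCAAT stood in 38.1% of those that fell and 42.9% of those that rose by at least 1.

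Hmgcs1 measured 17.1, 14.6, 18.7 and 8.17 FPKM with vehicle and 7.82, 6.78, 9.36 and 6.83 FPKM with dexamethasone. Vehicle library 4 was the lowest of its group and overlapped the dexamethasone libraries (-0.80 ± 0.24, log2, SE; limma adjusted p = 0.0168). Fdft1, squalene synthase, measured 4.78, 5.9, 5.76 and 2.31 FPKM with vehicle and 1.31, 1.36, 1.61 and 1.37 FPKM with dexamethasone. Srebf2 itself measured 40.2, 49.9, 44.6 and 26.9 FPKM with vehicle and 11.2, 11.8, 11.4 and 12.5 FPKM with dexamethasone. In Fdft1 and Srebf2 every dexamethasone library was below every vehicle library.

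Fatty acid genes fell in 15 of 27 cases (13 without vehicle library 4) and rose in 3. Srebf1, Acaca and Fasn fell by 0.44, 0.39 and 0.53. Lpl, the secreted lipase, measured 456, 377, 415 and 187 FPKM with vehicle and 96.6, 96.7, 126 and 96 FPKM with dexamethasone. The risers included Pnpla2, the lipase that opens lipid droplets, at 39.7, 46.8, 40.5 and 30.9 FPKM with vehicle and 148, 144, 139 and 147 FPKM with dexamethasone, and Lpin1, from 3.28 ± 0.0824 to 11.3 ± 1.12 FPKM. Among genes of lipid uptake Pparg fell from 20.1 ± 3.43 to 9.5 ± 1.33 FPKM, and the fatty acid carriers Fabp5 and Fabp3 fell from 257 ± 112 to 77 ± 12.1 FPKM and from 10.5 ± 5.54 to 2.15 ± 0.979 FPKM.

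Genes of cholesterol efflux were divided, 5 higher and 5 lower of 17 (29.4% each, beside 15% and 24.1% of all genes). The transporter Abca1 rose from 73.4 ± 15.1 to 101 ± 11 FPKM and Abca9 from 6.34 ± 2.29 to 19 ± 5.82 FPKM, and Apoc1 went from 0.43 to 5.43 FPKM. Apoe, the apolipoprotein that carries cholesterol out of macrophages, measured 3768, 3766, 2871 and 5652 FPKM with vehicle and 9347, 8310.0, 7698 and 8419 FPKM with dexamethasone, among the highest levels named here. Nr1h3, the factor LXR alpha that drives this set, fell from 28.8 ± 10.9 to 14.5 ± 1.55 FPKM, and Lipa, the lysosomal lipase that frees cholesterol, measured 854, 830.4, 759.8 and 619.9 FPKM with vehicle and 218, 257, 277 and 255 FPKM with dexamethasone. Abcg1 stood at 99.3 ± 16 FPKM with vehicle and 93.6 ± 9.85 FPKM with dexamethasone and did not pass (limma adjusted p = 0.756).

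Glycolysis genes fell in 17 of 27 cases. Hk3, a hexokinase of myeloid cells, measured 201, 230.2, 186 and 116 FPKM with vehicle and 52.6, 60.6, 66.3 and 52.3 FPKM with dexamethasone. Gapdh, often used as a reference gene, fell from 251 ± 25.8 to 127 ± 11 FPKM, Pkm from 326 ± 44.7 to 149 ± 11.9 FPKM and Ldha from 208 ± 24.6 to 110.5 ± 12 FPKM. The transporter Slc2a1 fell from 12.7 ± 0.749 to 7.3 ± 0.684 FPKM, while its relative Slc2a3 rose from 1.56 ± 0.287 to 4.56 ± 0.766 FPKM and Pfkfb3, which makes an activator of phosphofructokinase, rose from 12.1 ± 1.41 to 24.8 ± 3.69 FPKM. Hk2 stood at 8.65 ± 0.624 FPKM with vehicle and 8.71 ± 1.3 FPKM with dexamethasone (limma adjusted p = 0.992).

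Nuclear genes of the respiratory chain fell in 19 of 33 cases by smaller steps and rose in 1, with a median of -0.24. With median-ratio scaling 14 fell and 3 rose, and with quantile normalization the median was -0.08. Cycs, which encodes cytochrome c, fell from 10.5 ± 0.99 to 5.38 ± 0.753 FPKM, and Atp5b fell from 163 ± 19.1 to 118 ± 1.48 FPKM. In the citric acid cycle 9 of 25 fell (11 without vehicle library 4), or 36%, beside 24.1% of all genes. Mdh2 fell from 46.2 ± 2.48 to 31.2 ± 1.77 FPKM. Acod1, which makes the antimicrobial itaconate, fell from 2.74 to 0.236 FPKM, and Idh3g rose from 32 ± 2.01 to 43.7 ± 1.66 FPKM.

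Of 32 constitutive proteasome genes 25 fell and 1 rose, with a median of -0.34. Psmd8, of the regulatory cap, measured 85.1, 91.5, 74.4 and 63.5 FPKM with vehicle and 35.8, 35.3, 37.7 and 36.7 FPKM with dexamethasone. Psmb6, a catalytic subunit, measured 88.6, 102, 76.4 and 68.8 FPKM with vehicle and 42.9, 39.9, 45.9 and 43.5 FPKM with dexamethasone. Groups did not overlap in either. Psmc1, the riser, went from 66.6 ± 3.32 to 99 ± 7.61 FPKM. Chaperones of the endoplasmic reticulum fell in 13 of 25 cases (16 without vehicle library 4), among them Hspa5 (from 155 to 114 FPKM) and Sdf2l1 (from 83.4 to 49 FPKM), whereas Herpud1 and Dnajb9 rose (from 29.3 to 40.2 FPKM and from 11.7 to 16.3 FPKM). Cytosolic ribosomal proteins gave 0 rises and 1 fall of 40, Rpl19, a call lost without vehicle library 4; many of them have processed pseudogenes, and their values are uncertain.

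Lysosomal genes fell in 14 of 38 cases (20 without vehicle library 4) and rose in 4. That is 36.8% lower and 10.5% higher, beside 24.1% and 15% of all genes. Their median was -0.21 with the deposited scaling and -0.02 with quantile normalization. Atp6v0a1, a subunit of the proton pump, measured 285, 282, 245 and 154 FPKM with vehicle and 51.8, 58.1, 65.9 and 62.3 FPKM with dexamethasone. Ctsc fell from 59 ± 16.1 to 30.7 ± 5.37 FPKM and the factor Tfeb from 20.5 ± 3.96 to 12.9 ± 0.402 FPKM. Sort1, a sorting receptor, measured 22.9, 19.7, 19.4 and 9.21 FPKM with vehicle and 54.2, 47.1, 40.0 and 51.7 FPKM with dexamethasone, and the hydrolases Ctsh and Galc rose from 27.3 ± 6.58 to 50.6 ± 7.57 FPKM and from 13.8 ± 1.27 to 24.3 ± 1.28 FPKM. Lamp1 stood at 1109 ± 82.5 FPKM with vehicle and 1120.0 ± 54.3 FPKM with dexamethasone (limma adjusted p = 0.884). Of 29 autophagy genes 7 rose and 5 fell (7 and 7 without vehicle library 4), or 24.1% and 17.2%, beside 15% and 24.1% of all genes. Ulk1, the initiating kinase, rose from 13.5 ± 0.641 to 21.1 ± 1.59 FPKM, and the receptor Sqstm1 fell from 194 ± 23.6 to 145 ± 5.57 FPKM.

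Actin and migration genes fell in 27 of 36 cases, with a median of -0.60. Lcp1, which bundles actin in leukocytes, measured 244, 248, 249 and 221 FPKM with vehicle and 77.6, 85.8, 84.9 and 80.9 FPKM with dexamethasone. Actb, a cytoplasmic actin, measured 2366, 2447, 2248 and 2428 FPKM with vehicle and 1121, 1070.0, 1149.8 and 1151 FPKM with dexamethasone. Actg1, the other, measured 667, 643, 587 and 654 FPKM with vehicle and 232, 266, 302 and 281 FPKM with dexamethasone. Vehicle and dexamethasone libraries did not overlap in any of the 3 genes; the actins are near-copies and have pseudogenes. Rhob, a GTPase of endosomes, rose from 105 ± 4.98 to 181 ± 14 FPKM and Wasf2 from 54.9 ± 3.88 to 83.2 ± 5.48 FPKM.

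**Figure D4:**
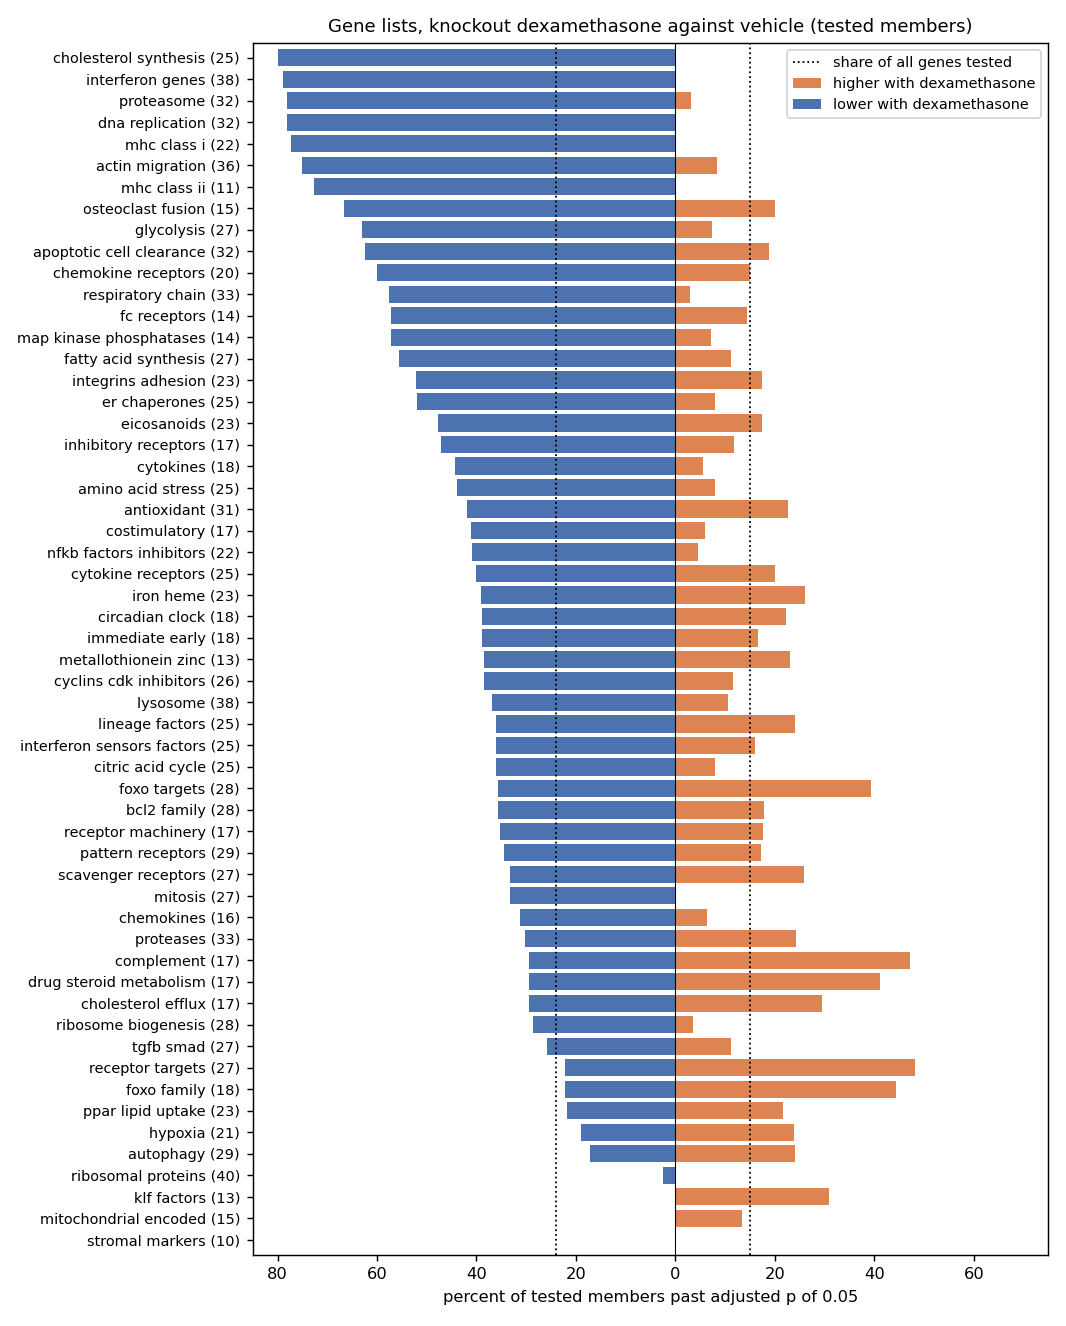
Percent of the tested members of each gene list with at least 10 of them (number tested in brackets) that passed as higher (orange, right) or lower (blue, left) with dexamethasone in the knockout. Dotted lines mark the share of all genes tested, 15% higher and 24.1% lower.

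Iron genes pointed in different directions. Tfrc, the transferrin receptor, measured 314, 255, 284 and 102 FPKM with vehicle and 67.9, 79.8, 84.5 and 57.7 FPKM with dexamethasone. Slc11a2, the iron transporter of endosomes, measured 30.9, 33.1, 34.3 and 27.4 FPKM with vehicle and 10.4, 10.9, 10.5 and 11.2 FPKM with dexamethasone. The ferric reductase Steap3 measured 71.7, 78.4, 58.3 and 36.4 FPKM with vehicle and 16.3, 18.9, 21.2 and 19.1 FPKM with dexamethasone. These genes of iron import fell, with vehicle library 4 the lowest of its group in each. Slc40a1, the known iron exporter, rose, at 8.39, 9.15, 5.37 and 6.39 FPKM with vehicle and 14.2, 29.6, 20.8 and 23.1 FPKM with dexamethasone. Hmox1, which frees iron from heme, measured 286, 305, 288 and 195 FPKM with vehicle and 619.8, 599.5, 481 and 522 FPKM with dexamethasone. Groups did not overlap in any of these. The ferritin chains Fth1 and Ftl1, among the most abundant transcripts, fell from 21768 ± 4281 to 12931 ± 775 FPKM and from 6318 ± 829.9 to 4220.5 ± 265 FPKM, and Ncoa4, which delivers ferritin to the lysosome, fell from 40.8 ± 4.18 to 27.3 ± 0.685 FPKM. Counts were 6 higher and 9 lower of 23.

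Of 13 tested metallothionein and zinc transport genes 3 rose and 5 fell (23.1% and 38.5%, beside 15% and 24.1% of all genes). The importers Slc39a10 and Slc39a6 fell from 8.0 ± 0.845 to 3.44 ± 0.284 FPKM and from 25.1 ± 5.5 to 12.8 ± 1.38 FPKM, and the exporter of the secretory pathway Slc30a7 rose from 4.37 ± 0.313 to 5.52 ± 0.252 FPKM. Antioxidant genes gave 7 rises and 13 falls of 31 (22.6% and 41.9%). Gpx3, a secreted glutathione peroxidase, measured 22.7, 13.9, 8.32 and 26.8 FPKM with vehicle and 45.5, 61.6, 57.8 and 79.8 FPKM with dexamethasone. Prdx1 measured 696, 628, 738 and 381 FPKM with vehicle and 258, 250.0, 224 and 215 FPKM with dexamethasone. Nfe2l2, the factor NRF2, fell from 86.7 ± 7.1 to 54.2 ± 2.32 FPKM, as did its targets Srxn1 (from 51.2 to 25.2 FPKM) and Gstm1 (from 154 to 89.3 FPKM). Nqo1, another known target, stood at 2.45 ± 0.356 FPKM with vehicle and 1.78 ± 0.527 FPKM with dexamethasone (limma adjusted p = 0.128).

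Amino acid stress genes, a list that holds Ddit4, gave 2 rises and 11 falls of 25 (2 and 7 without vehicle library 4). That is 8% and 44%, beside 15% and 24.1% of all genes. Atf4, the factor of this response, fell from 47.1 ± 0.735 to 27.9 ± 1.36 FPKM, and the mitochondrial folate enzyme Mthfd2 from 4.59 ± 0.766 to 1.07 ± 0.311 FPKM. Asns, asparagine synthetase, fell from 6.01 ± 1.63 to 3.58 ± 0.456 FPKM, a call lost without vehicle library 4 (limma adjusted p = 0.117). Atf5 rose from 39.5 ± 2.22 to 52.1 ± 4.19 FPKM.

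DNA replication genes fell without an exception among those called, 25 of 32, with a median of -0.57. Mcm6, a subunit of the replicative helicase, has in its promoter the element TTTNGCGC of E2F factors, searched on both strands and set in capitals. The sequence spans chr1:128359706-128359955 on the minus strand (RefSeq, GRCm38.p6). It is shown as an example of 5 of 28 list members with these letters (17.9%), which 215 of all tested genes hold (2.5%). Of the 23 list members that fell and have a listed promoter, 3 hold the letters (13%). The letters stood in 1.49% of genes that fell and 1.65% of genes that rose by at least 1.
Mcm6: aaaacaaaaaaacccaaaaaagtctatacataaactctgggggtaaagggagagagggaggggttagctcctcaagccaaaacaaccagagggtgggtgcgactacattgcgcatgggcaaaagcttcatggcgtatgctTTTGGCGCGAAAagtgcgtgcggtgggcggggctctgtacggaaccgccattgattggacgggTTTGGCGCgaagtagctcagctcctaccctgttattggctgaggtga
Mcm6 measured 12.3, 17.3, 13.7 and 12.8 FPKM with vehicle and 3.76, 5.89, 6.35 and 5.21 FPKM with dexamethasone (-1.26 ± 0.19; limma adjusted p = 0.00014). Mcm5, of the same helicase, measured 12.9, 17.9, 13.8 and 14.1 FPKM with vehicle and 3.46, 4.98, 5.13 and 4.35 FPKM with dexamethasone. Uhrf1, which maintains DNA methylation, measured 7.59, 10.9, 8.3 and 8.8 FPKM with vehicle and 1.54, 2.76, 3.18 and 2.72 FPKM with dexamethasone. Pcna, the polymerase clamp, measured 177, 127, 121 and 76.3 FPKM with vehicle and 45, 48.4, 62.4 and 59.9 FPKM with dexamethasone. Every dexamethasone library lay below every vehicle library in these genes.

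Mitosis genes fell in 9 of 27 cases (33.3%, beside 24.1% of all genes), and in 15 without vehicle library 4. Foxm1, which drives them, fell from 3.43 ± 0.331 to 1.64 ± 0.196 FPKM and Aurka from 4.99 ± 1.3 to 2.81 ± 0.509 FPKM. Mki67 measured 5.0, 5.69, 6.2 and 3.95 FPKM with vehicle and 2.45, 4.22, 3.46 and 3.88 FPKM with dexamethasone; the groups overlapped and the difference did not pass (limma adjusted p = 0.228). Of 26 cyclins and CDK inhibitors 10 fell and 3 rose (38.5% and 11.5%, beside 24.1% and 15% of all genes). Ccnd1, the cyclin that growth factors induce, measured 33.6, 25.5, 23.5 and 29.8 FPKM with vehicle and 3.78, 4.11, 11.4 and 13.4 FPKM with dexamethasone. Cdkn1b, the inhibitor p27, rose from 7.47 ± 1.07 to 11.4 ± 0.615 FPKM, while Cdkn1c, the inhibitor p57, fell from 9.4 ± 4.64 to 1.88 ± 0.252 FPKM.

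Other FOXO factors were expressed in the knockout cells. Foxo1 measured 2.4, 2.35, 2.08 and 2.26 FPKM with vehicle and 2.75, 2.87, 2.71 and 2.93 FPKM with dexamethasone and rose without overlap (0.22 ± 0.055; limma adjusted p = 0.00572). Foxo4 stood at 11.9 ± 0.95 FPKM with vehicle and 13 ± 0.495 FPKM with dexamethasone (limma adjusted p = 0.275). Upstream of them Pik3ip1, an inhibitor of PI3 kinase, measured 0.598, 0.551, 0.202 and 0.642 FPKM with vehicle and 4.37, 5.09, 5.13 and 8.24 FPKM with dexamethasone. Groups did not overlap, and the regulatory subunit Pik3r1 rose from 13 to 24 FPKM. The kinase subunits of leukocytes Pik3cd and Pik3cg fell by 0.39 and 0.63, and the regulator Pik3r5 by 0.73. Of 18 tested genes of this list 8 rose and 4 fell (6 and 4 without vehicle library 4), or 44.4% and 22.2%, beside 15% and 24.1% of all genes.

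Of 28 tested FOXO targets 11 rose and 10 fell (39.3% and 35.7%, beside 15% and 24.1% of all genes), so calls in both directions were above the shares of all genes. Selenop, a secreted selenoprotein, measured 823, 626, 772 and 1078 FPKM with vehicle and 2586, 2505, 2695 and 2436 FPKM with dexamethasone. Cited2, a coregulator, measured 51.3, 57.8, 44.4 and 59.3 FPKM with vehicle and 146, 132, 135 and 126 FPKM with dexamethasone. Txnip, which binds thioredoxin, and the pocket protein gene Rbl2 rose from 267 ± 27.1 to 365 ± 19.8 FPKM and from 9.88 ± 0.759 to 12.6 ± 0.795 FPKM. S1pr1, the receptor of sphingosine phosphate, measured 25.2, 23.9, 23 and 33.3 FPKM with vehicle and 5.55, 7.11, 7.24 and 8.33 FPKM with dexamethasone. Irs2 fell from 2.18 ± 0.519 to 1.19 ± 0.237 FPKM. Several members, Tsc22d3, Klf4 and Pik3ip1 among them, are also known targets of the receptor or stand on another list.

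Survival and death genes gave 5 rises and 10 falls of 28 (5 and 8 without vehicle library 4), or 17.9% and 35.7%, beside 15% and 24.1% of all genes. Bcl2l1, which encodes the survival protein BCL-XL, measured 41.8, 43.4, 34.6 and 31.5 FPKM with vehicle and 19.7, 20.7, 23.7 and 20.3 FPKM with dexamethasone. Bcl2l11, the death trigger BIM, fell from 18.1 ± 1.63 to 11.3 ± 1.38 FPKM and Bak1, a pore-forming executioner, from 44.6 ± 5.27 to 27.6 ± 2.02 FPKM. Birc3, an inhibitor of death by TNF, rose from 13.8 ± 2.4 to 32.5 ± 3.1 FPKM. Mcl1, the most abundant survival gene of the list, stood at 269, 284, 264 and 219 FPKM with vehicle and 309, 309, 285 and 291 FPKM with dexamethasone; the groups did not overlap and the difference did not pass (limma adjusted p = 0.136).

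Cd4, listed as a T cell marker, fell from 15.1 ± 3.22 to 4.3 ± 0.539 FPKM, while Cd3d was listed at 0 and Cd3e did not pass 0.05 FPKM in any knockout library. Ighm, listed as a B cell marker, fell from 43.7 ± 25.3 to 12.4 ± 1.22 FPKM, with 81.5 FPKM in vehicle library 4, and Cd79b, a chain of the B cell receptor complex, fell from 3.81 to 2.22 FPKM. Igkc, the third B cell marker tested of 7 listed, was at 2.49 to 8.37 FPKM with vehicle and 5.02 to 8.04 FPKM with dexamethasone and did not pass. Pf4, the 1 tested of 8 erythroid and megakaryocyte markers, was called lower, and the sum of that list was 65.1 to 117 FPKM with vehicle and 37.9 to 73.4 FPKM with dexamethasone. Nearly all of that sum was Pf4, at 64.7 to 117 FPKM with vehicle and 36.6 to 72.2 FPKM with dexamethasone. The summed level of the 8 endothelial markers was 7.74 to 11.9 FPKM with vehicle and 2.42 to 4.0 FPKM with dexamethasone, and 2 of 6 tested fell. Vwf made up most of the sum in vehicle libraries 1 to 3, at 9.05, 10.5 and 6.45 FPKM, and measured 2.58 FPKM in vehicle library 4. Cdh5 and Cldn5 measured 3.3 and 2.05 FPKM in vehicle library 4 and at most 0.0822 and 0.0711 FPKM in every other knockout library. The part of these cell types in the results above was not tested.

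Most of the response was called in wild type too. Of the 4562 genes called in the knockout, 4347 had a wild-type difference of the same sign. In wild type 2697 of them were called in the same direction (23.1% of the genes tested) and 4 in the opposite one (0.0343%). These comparisons share no libraries, but the filter on low values and the estimate of spread used all 16 libraries. Of 647 genes that changed by at least 1 in the knockout, 587 were called the same way in wild type. A gene called only in the knockout is not thereby shown to respond differently. The difference between the responses was tested as an interaction, which passed for 15 genes (0.129%), 7 with a more positive response in the knockout (0.0601%) and 8 with a more negative one (0.0686%). That count ran from 2 to 330 when single libraries were left out, the highest without wild-type dexamethasone library 4, and it was 32 without knockout vehicle library 4.

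Acp5, tartrate-resistant acid phosphatase, was low in the vehicle libraries of the knockout. In the knockout it measured 6.23, 6.63, 5.53 and 3.29 FPKM with vehicle and 20.6, 21, 18.4 and 18.2 FPKM with dexamethasone, and in wild type 27.6, 24.1, 21 and 26.1 FPKM with vehicle and 26.4, 24.4, 29.9 and 38.9 FPKM with dexamethasone. The knockout vehicle libraries lay below all others, and the responses differed by 1.46 ± 0.24 (log2, SE; interaction, limma adjusted p = 0.0394). Slc16a14, an orphan monocarboxylate transporter, measured 0.398, 0.054, 0.189 and 0.201 FPKM with vehicle and 4.75, 3.81, 4.4 and 6.2 FPKM with dexamethasone in the knockout and 0.168, 0.0806, 0.311 and 0.145 FPKM with vehicle and 0.888, 0.672, 0.449 and 1.6 FPKM with dexamethasone in wild type. Calml4, a calmodulin-like protein, went from 1.01 to 6.13 FPKM in the knockout and from 0.445 to 1.43 FPKM in wild type. Clec7a, the beta-glucan receptor dectin-1, fell in both genotypes, by less in the knockout (-1.57 ± 0.13) than in wild type (-2.64 ± 0.13; interaction limma adjusted p = 0.0394). Galnt1, which starts mucin-type glycosylation, and Fam126a, an adaptor of lipid kinase, rose in both and more in the knockout, by 1.24 against 0.61 and by 0.87 against 0.29.

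Serinc3, a membrane protein known for restricting retroviruses, measured 127, 114, 122 and 117 FPKM with vehicle and 145, 135, 135 and 146 FPKM with dexamethasone in the knockout and 212, 249, 226 and 266 FPKM with vehicle and 611, 624, 544 and 728 FPKM with dexamethasone in wild type. Its wild-type libraries stood above the knockout libraries of the same treatment, and the response was 0.22 ± 0.087 in the knockout against 1.39 ± 0.087 in wild type (interaction limma adjusted p = 0.00157). Rab15, a GTPase of endosomes, stayed under 1 FPKM in the knockout, at 0.0755, 0.17, 0.0874 and 0.314 FPKM with vehicle and 0.421, 0.577, 0.728 and 0.742 FPKM with dexamethasone, and rose to 3.96 FPKM in wild type. Bcl2l1 fell in the knockout and measured 36.4, 33.7, 40.1 and 32.9 FPKM with vehicle and 39.2, 34.5, 40.4 and 34.1 FPKM with dexamethasone in wild type, a response of 0.05 ± 0.10 (interaction limma adjusted p = 0.0394). The tetraspanin Tspan4 fell by 1.01 in the knockout, against a difference of -0.20 in wild type that did not pass (limma adjusted p = 0.153). Igbp1, a subunit partner of PP2A phosphatases, rose by 0.49 in the knockout, against 0.08 in wild type (limma adjusted p = 0.254). Slc11a2 and Tgfbr2, a receptor of TGF-beta, fell in both genotypes and more in the knockout, by 1.46 against 0.78 and by 1.34 against 0.71. The same held for Tef, by 0.87 against 0.28, and for Atf4, by 0.74 against 0.27. Serinc3, the gene with the smallest interaction p, did not pass in the knockout alone (limma adjusted p = 0.0578).

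**Figure D5:**
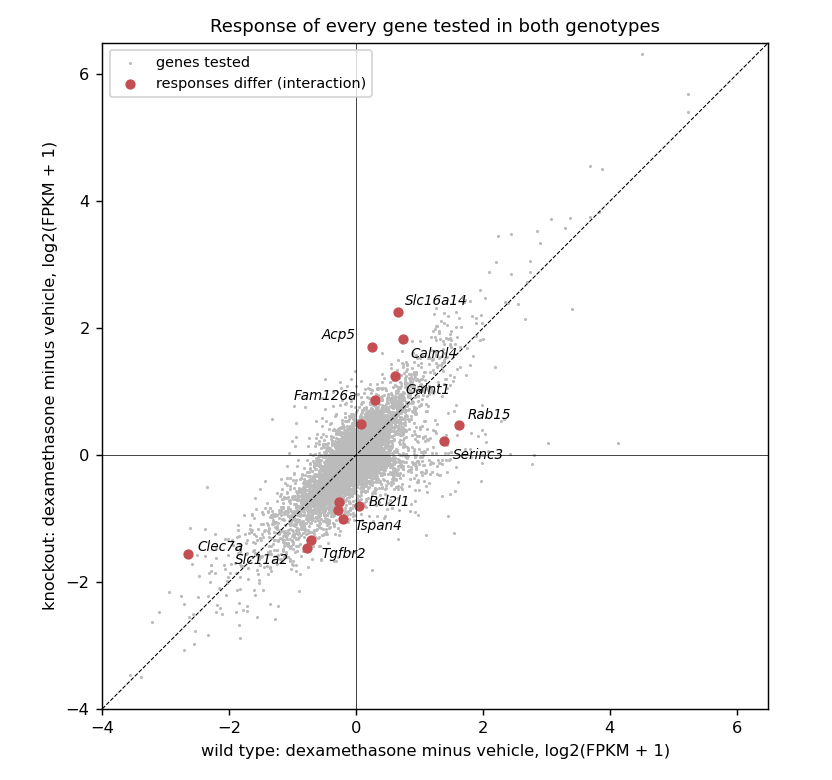
Log2(FPKM + 1) difference between dexamethasone and vehicle for every gene tested, wild type on the x axis and knockout on the y axis. Red points mark the 15 genes whose responses differed by the interaction test, and the dashed line marks equal responses. Of the 647 genes that changed by at least 1 in the knockout, 587 were called the same way in wild type.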

How the data were processed

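RNA of 16 macrophage libraries was sequenced on Illumina instruments, per the labels' protocols, and the authors deposited FPKM per gene for each library, with no counts. The submitters' processing notes name the aligners TopHat2 2.0.12 and Bowtie2 2.2.3, the counter HTSeq 0.6.1, DESeq2 and the build GRCm38 (mm10); the settings, the annotation version and the strandedness are not stated there, so reads of a gene and its antisense partner, of overlapping genes and of near-copies cannot be told apart. Of 54532 gene identifiers 54495 were named from a reference table of gene names or GENCODE M21, and rows without a name held at most 0.00529% of a library. FPKM steps gave whole reads, within 0.05 reads, for 96.3 to 96.7% of positive values, from which the depth was read.

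Genes that reached 1 FPKM in 4 or more of the 16 libraries were tested on log2(FPKM + 1) with limma 3.58.1 in R 4.3.3, with 4 group means, a variance trend and Benjamini-Hochberg adjustment over 11654 genes. The script was tested on simulated data. Named genes were Foxo3, Nr3c1, Foxo1, the 14 steepest rises and falls, the first 3 measured and up to 4 called members of each list in each direction, 6 interaction genes each way and 5 genes that moved most without vehicle library 4; Anxa1, Fth1, Ftl1, Igbp1, Il6st, Mcm6 and Tlr8 fall outside this rule and were chosen after their values were seen, and some genes that the rule names are not reported here. The members and the lists were chosen with earlier results of these data known. The alternatives were a pseudocount of 0.1, no filter, median-ratio scaling, quantile normalization, replicate number as a block, array weights, the 8 knockout libraries alone and each library left out in turn. The alternative of limma voom on the recovered reads was added after seeing the data. Promoters are RefSeq's, on GRCm38.p6; motif matches that overlapped another of the motifs searched were few (2 of 127 for the receptor element, 8 of 1041 for the interferon element, 2 of 351 for the sterol element, 17 of 15720 for CCAAT and 5 of 382 for the E2F element, over all promoters listed).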

Additional observations from a re-analysis of the deposited data

Results flagged for a closer look

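The responses of 15 genes differed between knockout and wild type by the interaction test (limma, adjusted over all genes tested). On the log2 scale, as knockout minus wild-type response, the difference was 1.59 for Slc16a14, 1.46 for Acp5, 1.08 for Calml4, 1.08 for Clec7a, 0.63 for Galnt1, 0.57 for Fam126a and 0.41 for Igbp1 among the more positive responses. Among the more negative ones it was -1.17 for Serinc3, -1.14 for Rab15, -0.85 for Bcl2l1, -0.81 for Tspan4, -0.68 for Slc11a2, -0.63 for Tgfbr2, -0.59 for Tef and -0.47 for Atf4.

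Single libraries stood far from the other 3 of their group in 46 of 646 groups of 4 libraries, where chance flags about 1 in 20 groups. Vehicle library 4 accounted for 20 of them. It was higher than the rest of its group in Egr1 (7.13 FPKM), Hp (28.9 FPKM), Ighm (81.5 FPKM), Iigp1 (17.2 FPKM), Il21r (28 FPKM), Il4ra (57.8 FPKM), Il6ra (17.1 FPKM), Klf2 (17.9 FPKM), Nfil3 (11.3 FPKM), Tgfbr2 (84 FPKM), Txnip (307 FPKM) and Vegfa (11.6 FPKM). It was lower in Acaca (2.6 FPKM), Fth1 (15398 FPKM), Hmox1 (195 FPKM), Itgax (12 FPKM), Jak1 (39.9 FPKM), Pcp4l1 (34.5 FPKM), Tsc22d3 (16.3 FPKM) and Ugt1a7c (11.3 FPKM). Vehicle library 2 was higher than the rest of its group in Bak1 (52.4 FPKM), Fkbp5 (1.16 FPKM) and Il18 (5.09 FPKM) and lower than the rest of its group in mt-Rnr2 (46.2 FPKM). Vehicle library 3 was higher than the rest of its group in Adgre1 (1503 FPKM) and Spred1 (27 FPKM) and lower than the rest of its group in Ciita (1.35 FPKM). Dexamethasone library 1 was higher than the rest of its group in Alox5ap (184 FPKM), Cbr2 (303 FPKM), Galc (26.2 FPKM), Sult1a1 (223 FPKM) and Tgfbi (125 FPKM) and lower than the rest of its group in Aurka (2.05 FPKM) and Srxn1 (21.3 FPKM). Dexamethasone library 2 was higher than the rest of its group in Per2 (1.12 FPKM) and lower than the rest of its group in Aif1 (20.6 FPKM) and Foxo4 (12.2 FPKM). Dexamethasone library 3 was higher than the rest of its group in Anxa1 (361 FPKM), Iigp1 (1.43 FPKM) and Lpl (126 FPKM) and lower than the rest of its group in Nfkb1 (10.9 FPKM), Nfkbia (62.2 FPKM) and Zfp36l1 (80.8 FPKM). Dexamethasone library 4 was higher than the rest of its group in Acaca (2.71 FPKM) and Itgal (4.59 FPKM) and lower than the rest of its group in Jaml (35.8 FPKM). The spread of such groups enters the tests above. The rate of 1 in 20 holds for independent groups with normally distributed values. These groups share libraries, and 5 genes were named because they moved most without vehicle library 4. The counts of flags are thus a description, not a test.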

How the results depend on the processing

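The count of genes called in the knockout stayed within 1.5 times 4562 under every alternative, from 3877 with replicate number as a block to 6189 with array weights, and from 3761 to 4442 with single knockout libraries left out; limma voom on recovered reads, chosen after seeing the data, gave 4649. Median-ratio scaling moved the median of all genes by 0.048. The interaction count of 15 became 6 without a filter, 1 with the block, 1391 with array weights, and 2 to 330 with single libraries left out; leaving out wild-type vehicle library 3 was the only such case that moved it by less than 1.5 times. The wild-type count ran from 2898 to 3633 with single libraries left out. Of 297 named genes called, 269 kept the call under every alternative run, and none changed sign. Many of them were named for a small adjusted p or a steep change, so this share does not describe all 4562 calls. Of the 4562 calls, 483 were lost without knockout vehicle library 4. Same-numbered knockout libraries had deviations from their group means that correlated at -0.0595, 0.394, -0.347 and 0.45 for replicates 1 to 4, so the numbers were not taken to pair the libraries, and the block is given only here.

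Among named genes that did not pass, the log2 difference changed sign as follows: Abcg1 (-0.08) gave 0.11 with quantile normalization; Hk2 (0.00) gave -0.073 with array weights, -0.056 to 0.090 with single libraries left out; Lamp1 (0.02) gave -0.035 with array weights, -0.037 to 0.048 with single libraries left out; Tap1 (-0.09) gave 0.019 with quantile normalization, 0.012 with array weights, -0.20 to 0.081 with single libraries left out; Tlr4 (0.05) gave -0.070 with array weights, -0.097 to 0.11 with single libraries left out. The cause of these changes was not tested. The 33.1 to 39.7 reads behind 1 FPKM of a 2 kb gene limit what can be said of low genes.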

Other observations

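Lipid mediator genes went both ways. Pla2g7, which breaks down platelet-activating factor, measured 189, 219.7, 232 and 83.2 FPKM with vehicle and 579, 541, 441 and 478 FPKM with dexamethasone in the knockout libraries. Ptger2, a receptor of prostaglandin E2, rose from 1.06 ± 0.123 to 3.55 ± 0.259 FPKM, and Alox5ap, which presents arachidonate to the lipoxygenase, from 112 ± 5.1 to 163 ± 14.3 FPKM. The synthases fell, Ptgs1 from 4.8 ± 2.36 to 1.48 ± 0.616 FPKM and Alox5 from 4.9 ± 1.5 to 1.59 ± 0.197 FPKM. Among annexins, Anxa1, known in other settings as a glucocorticoid-induced mediator, fell from 606 ± 220.1 to 279.6 ± 54.2 FPKM, as did Anxa2 from 242 ± 34.1 to 112 ± 14.5 FPKM and Anxa3 from 44.9 ± 9.62 to 21.7 ± 2.88 FPKM. Of 23 tested members 4 rose and 11 fell, against 15% and 24.1% of all genes.

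Of 17 tested enzymes of drug and steroid metabolism, a list that holds Sult1a1, 7 rose and 5 fell (41.2% and 29.4%, beside 15% and 24.1% of all genes). Ugt1a7c, a glucuronosyltransferase of a locus whose transcripts share exons, measured 18.6, 19.5, 18.8 and 11.3 FPKM with vehicle and 98.1, 78.8, 75.8 and 73.1 FPKM with dexamethasone. The epoxide hydrolase Ephx1 measured 49.8, 44, 36.6 and 51.7 FPKM with vehicle and 106, 85.8, 109 and 119.6 FPKM with dexamethasone. The electron donor Por fell from 174 ± 42 to 110.1 ± 7.04 FPKM, and Akr1a1 from 819 ± 131 to 446 ± 14.2 FPKM. In the TGF-beta list Tgfbi, a secreted matrix protein, measured 25, 25.4, 31.2 and 20.7 FPKM with vehicle and 125, 91, 96.3 and 94.3 FPKM with dexamethasone, while the receptor Tgfbr2 measured 76.9, 75.7, 76.8 and 84 FPKM with vehicle and 29.2, 29.2, 30.8 and 31.7 FPKM with dexamethasone and Nrros, which holds latent TGF-beta at the cell surface, fell from 113 ± 6.75 to 62.5 ± 4.57 FPKM. The mitochondrial ribosomal RNAs mt-Rnr1 and mt-Rnr2 rose from 107 ± 19.5 to 168 ± 10.6 FPKM and from 59 ± 8.67 to 109 ± 21.7 FPKM, while none of the other 13 tested mitochondrial transcripts passed by limma.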
